A study of Mus musculus with 4 samples.

Results

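C1q-positive macrophages that carry almost no Retnla were examined in single cells of mouse ascites. Members were chosen by measured counts: a cell was taken when it had at least 5 unique molecular identifiers (UMIs, one per captured RNA molecule) of C1qa, C1qb and C1qc together and at most 2 of Retnla. It also had at most 1 UMI of the T cell genes Cd3d, Cd3e and Cd3g, at most 2 of the B cell genes Cd79a and Cd79b, and at most 2 of the keratins Krt7, Krt8, Krt18 and Krt19. Of 45178 cells with at least 200 genes and at most 33% mitochondrial UMIs, 2717 were members. The libraries were compared over the 2285 members with at least 3500 UMIs, out of 34307 cells past that floor. Because these genes chose the cells, their levels below are a description and not a result.

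C57BL/6 mice carried intraperitoneal ID8-Trp53-/- cells, a mouse ovarian cancer line that lacks Trp53, and 7 days were left for engraftment. All groups received an agent or vehicle together with an antibody 2 times a week, up to an ascites volume of about 3 mL. In the control group this was DMSO with the isotype antibody IgG2a, and in the BTYNB group it was BTYNB, a small molecule inhibitor of the RNA-binding protein IGF2BP1, at 50 mg/kg with IgG2a. The anti-PD-1 group had DMSO with the PD-1 blocking clone RMP1-14, and the combination group had BTYNB with RMP1-14, each antibody at 100 ng per dose. These doses are those of the labels, and the study's methods give different ones. Cells of all animals of a group were pooled before capture into 1 library, so no replicate check exists, no test between groups was possible, and every interval below covers counting error only.

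C1q is the recognition part of the classical complement pathway, and tissue macrophages are its main source. In the mouse peritoneal cavity, long-lived large macrophages depend on the transcription factor GATA6, whereas monocytes that enter through the chemokine receptor CCR2 lose Ly6C and gain macrophage genes as they mature. In tumours, C1q-positive macrophages are known for phagocytosis, antigen presentation and, in some states, arginine depletion by arginase 1.

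Values are given in the order control, BTYNB, anti-PD-1 and combination unless a sentence names the libraries. The members past the floor numbered 203, 1018, 347 and 717. Their median total was 5388, 5828, 4204 and 7033 UMIs per cell, and their summed UMIs ran from 1211244 to 7042594. The higher floor of 5115 UMIs, the greatest of the lowest cell totals, left 130, 630, 63 and 717 members, so that the anti-PD-1 values rest on few cells there. Any 2 libraries shared 0 to 4 numeric cell labels. The BTYNB library was the shallowest as deposited, with a lowest cell total of 869 UMIs against 3533 to 5115 in the others, and 432 of its members lay under 3500 UMIs.

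The members carried a macrophage profile. Lyz2, the lysozyme of macrophages and other myeloid cells, was at 10140, 7053, 12226 and 10077 CPM (counts scaled to one common total per library), against 85.0 to 526 CPM in the other cells of the same libraries. Cd68, a lysosomal glycoprotein of macrophages, was at 649.7, 646, 686 and 741 CPM, and at 11.4 to 67.0 CPM in other cells. Adgre1, which encodes the F4/80 antigen, was at 179, 144, 121 and 225 CPM and at 1.11 to 7.11 CPM in other cells. Csf1r, the receptor for the growth factor on which macrophages depend, stood at 495, 524, 589 and 458 CPM. The C1q genes themselves summed to 6090, 5515, 6892 and 6495 CPM, and the median member had 35, 28, 30 and 46 C1q UMIs.

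At the edges of the rule few cells were found. Members with 5 to 7 C1q UMIs numbered 3, 77, 5 and 26, and the cells just outside, with 3 to 4 C1q UMIs, numbered 7, 67, 5 and 23. In the BTYNB library the cells just inside had 115 CPM of Adgre1 and 440 CPM of Csf1r, and those just outside had 65.5 and 378 CPM. In the combination these values were 48.9 and 261 CPM inside, and 18.2 and 285 CPM outside. The few cells just inside in control and anti-PD-1 had no Adgre1, and Csf1r at 56.4 and 80.5 CPM. Those just outside had 407 and 334 CPM of Csf1r there, and Adgre1 at 0 and 47.7 CPM. Members with 1 or 2 Retnla UMIs numbered 3, 19, 3 and 34, and cells with 3 to 4 numbered 3, 4, 1 and 9. The keratin limit removed 62, 57, 206 and 123 cells that had passed every other step. In keratin-positive cells (at least 10 keratin UMIs) 0.505% to 1.71% had 5 or more C1q UMIs, at a C1q level of 9.72 to 36.2 CPM.

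In control, 203 of 7834 cells past the floor were members, a share of 2.59% with an exact 95% binomial interval from 2.25 to 2.97%. The share was 13.7% with BTYNB (12.96 to 14.5%), where 1018 of 7412 cells were members. It was 2.89% (2.60 to 3.20%) with the antibody alone and 10.2% (9.48 to 10.9%) in the combination. Both shares with BTYNB lay above both without it, at the higher floor as well, where they were 1.76%, 11.4%, 0.681% and 10.2%. Among cells with at most 2 keratin UMIs, which leaves out most tumour cells, the shares were 30.5%, 26.4%, 38.2% and 35.1%, with the BTYNB library lowest. At the higher floor they were 28.1%, 28.5%, 22.1% and 35.1%, so that this order does not hold with depth. Among C1q-positive cells past the same lineage limits, 84.6%, 93.9%, 97.5% and 82.2% were members. The rest carried Retnla and numbered 37, 66, 9 and 155 cells. A larger share of all cells and fewer tumour cells in the pool cannot be told apart from these counts.

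**Figure D1:**
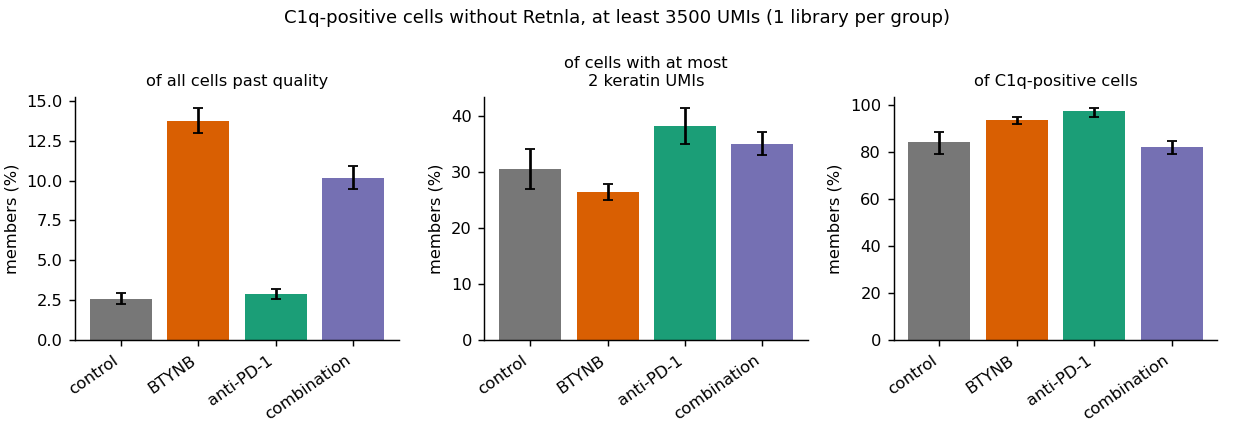
Members as a percentage of all cells past quality, of cells with at most 2 keratin UMIs and of C1q-positive cells, for 1 library per group (bars), with exact 95% binomial intervals that cover counting error only. The BTYNB and combination bars (13.7% and 10.2%) stand above control and anti-PD-1 (2.59% and 2.89%) in the left panel, while the BTYNB bar is the lowest (26.4%) in the middle one.

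Between libraries, UMIs were summed over the members and compared as log2 ratios of CPM + 10, over 3955 genes with at least 50 CPM in 1 or more libraries. A gene at least 2-fold apart is called past 2-fold, which is a size and not a test. Square brackets give the 95% counting interval of the log2 ratio without the added 10 CPM, which for low genes lies farther from 0 than the ratio itself. BTYNB against control had 68 genes higher and 175 lower past 2-fold, which is 1.72%, 4.42% and together 6.14% of the genes compared. Anti-PD-1 against control had 22 higher and 10 lower (0.556% and 0.253%, together 0.809%). Combination against anti-PD-1 had 34 higher and 57 lower (0.86% and 1.44%, together 2.3%), and combination against BTYNB had 70 higher and 28 lower (1.77% and 0.708%, together 2.48%). With median-of-ratios scaling the anti-PD-1 split was 32 higher and 8 lower. The median gene differed by -0.07 to 0.01 on the log2 scale in the 4 comparisons. At the higher floor the anti-PD-1 library is small, and 224 genes were past 2-fold against control there.

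RNA of other cells differed between the libraries and is given here because several results move with it. The level of tumour markers in the members was 12.8%, 3.46%, 15.3% and 8.56% of that in the whole library, taken as the median of 5 markers. Tumour markers summed to 485, 137, 683 and 297 CPM over 12 genes, of which 10 or 11 had a UMI and Cldn4 had none in any library. Stromal markers summed to 377, 28.7, 679 and 96.6 CPM over 8 genes, of which 6 to 8 had a UMI. In the other cells of the libraries they summed to 430, 416, 352 and 392 CPM. Erythroid markers summed to 28.1, 200.2, 12.8 and 298 CPM over 5 genes, and to 21.1, 102, 56.2 and 50.3 CPM in the other cells. The T, B, NK, neutrophil, dendritic and mast cell lists each summed to at most 105 CPM in any library, with 2 to 9 of their genes detected in a library. Camp of the neutrophil list and the mast cell genes Ms4a2 and Mcpt8 were at 0 throughout, and Siglech of the dendritic list in all but the combination. Their part in the differences below was not tested, except where a value without such cells is given.

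Monocyte genes were higher in the BTYNB members. Of 10 genes compared from the monocyte-derived list, 6 were past 2-fold higher and 1 lower in BTYNB against control, with a median log2 ratio of 1.33 against -0.01 over all genes. Ccr2, the chemokine receptor of inflammatory monocytes, was at 615, 1728, 355 and 755 CPM, a log2 ratio of 1.48 [1.38, 1.60] over control and, with the antibody, of 1.07 [0.96, 1.22]. The latter was 0.74 with keratin, Cd3 and Cd79 held at 0. Ly6c2, a surface antigen of classical monocytes, was at 57.0, 316, 41.7 and 126 CPM. Plac8, which is abundant in circulating monocytes, stood at 245, 1059, 363 and 336 CPM, and Vcan, a proteoglycan of monocytes, at 27.2, 123, 14.7 and 20.1 CPM. Plac8 was also at 301, 354, 241 and 231 CPM in the other cells of these libraries. With each cell thinned to a common total, Plac8 was found in 24.0% to 46.4% of keratin-positive cells. How much of the members' Plac8 came from RNA of other cells was not tested. The lower gene of the list was Fn1, fibronectin, at 2021, 718, 2218 and 2018 CPM, and at 369 to 414 CPM in other cells. Ccr2 and Ly6c2 were thus higher with BTYNB whether or not the antibody was given, while Plac8 and Vcan were high in the BTYNB library and at or near the other levels in the combination.

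The 5 genes with the greatest ratios for BTYNB against control under the naming rule were Ifitm1, Il1b, Il1r2, Ly6c2 and Spon1, of which Ly6c2 belongs to the monocyte-derived list. Il1b, the inflammatory cytokine interleukin-1 beta, was at 48.7, 340.4, 80.8 and 90.4 CPM, a log2 ratio of 2.58 [2.43, 3.20]. Ifitm1, an interferon-induced membrane protein, stood at 8.26, 116, 25.6 and 22.1 CPM, but the other cells of these libraries held 6.05, 85.3, 91.3 and 24.0 CPM of it. Il1r2, the decoy receptor for interleukin-1, was at 20.6, 161, 11.5 and 41.7 CPM, and the matrix protein gene Spon1 at 19.8, 135, 28.8 and 39.9 CPM. The log2 ratio of Ly6c2 was 2.28. For Il1b and Spon1 the BTYNB level lay above the other 3 libraries, with Il1b in other cells at 3.32 to 60.7 CPM.

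Counted by cell, Ccr2, Ly6c2 and Il1b were carried by a larger share of the BTYNB members. For these shares each cell was thinned to 3500 UMIs. Ccr2 was found in 44.3%, 85.8%, 32.3% and 53.3% of members (48.8%, 87.3%, 34.6% and 57.5% without thinning), against 0.80% to 2.97% of keratin-positive cells. Ly6c2 was found in 9.36% of control members (5.73 to 14.2%), 32.9% with BTYNB (30.02 to 35.9%), 8.93% with anti-PD-1 (6.15 to 12.4%) and 13.8% in the combination (11.4 to 16.6%). Il1b was found in 11.3%, 41.6%, 18.4% and 14.9%. Members with 3 or more Ly6c2 UMIs made up 3.94%, 23.1%, 2.59% and 8.23%, a limit chosen after the values were seen. Without them Ccr2 and Il1b were still past 2-fold higher in BTYNB against control, and Ly6c2 itself, which chose them, was at 0.54.

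Genes of resident large peritoneal macrophages were low in the BTYNB members and high in the combination. Of 9 genes compared from this list, 7 were past 2-fold lower in BTYNB against control and none higher, with a median log2 ratio of -1.38. In combination against BTYNB 7 were past 2-fold higher and none lower, with a median of 1.96. In combination against anti-PD-1 6 were higher and none lower (median 1.11), and in anti-PD-1 against control none were higher and 2 lower (median -0.14). Serpinb2, Selp, Icam2 and the coagulation factor gene F5 reached the level needed to be compared only in the combination. The counts and medians that involve the combination therefore do not weigh the directions against each other. Of the listed genes too low to be compared, Timd4 and Vsig4 were lower in the combination than with anti-PD-1, and Cxcl13 and Garnl3 were higher.

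Prg4, which encodes the lubricating glycoprotein lubricin, was at 131 CPM in control, 11.1 with BTYNB, 50.0 with anti-PD-1 and 845.0 in the combination. Alox15, the 12/15-lipoxygenase of resident peritoneal macrophages, was at 244, 9.80, 82.0 and 577 CPM. Both were thus lowest with BTYNB alone and highest in the combination. Selp, the adhesion molecule P-selectin, stood at 18.2, 1.99, 21.2 and 66.4 CPM, and Icam2, an integrin ligand, at 36.3, 8.66, 23.7 and 62.7 CPM. Serpinb2, a plasminogen activator inhibitor, had 20, 1, 22 and 641 UMIs, and Serpinb10, of the same family but outside the list, had 24, 4, 13 and 375. The single Serpinb2 UMI with BTYNB gives a level of 0.142 CPM against 16.5 CPM in control, a log2 ratio with a counting interval of -12.2 to -4.22.

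Other genes of the list behaved less evenly. Gata6 was at 49.5, 10.2, 60.3 and 50.7 CPM in the members, but at 221 to 314 CPM in the other cells and in 45.6% to 68.3% of keratin-positive cells. How much of the members' Gata6 came from RNA of other cells was not tested. Timd4, the phosphatidylserine receptor TIM-4, was at 7.43, 2.13, 12.8 and 6.04 CPM, and Vsig4, a complement receptor, at 4.13, 5.40, 30.8 and 24.1 CPM, both too low to be compared. The chemokine gene Cxcl13 was found in control and combination (12.4 and 15.7 CPM) and at 0 UMIs in the BTYNB and anti-PD-1 members.

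These genes sat in a minority of members. After thinning, Alox15 was found in 18.2%, 1.28%, 10.95% and 19.4% of members, and Prg4 in 7.39%, 0.491%, 2.59% and 16.04%. In each library the 10% of members with most Alox15 held between 85.5% and 100% of its UMIs. In the combination, 102 of 139 members with Alox15 also had Prg4 (73.4%, interval 65.2 to 80.5%), against 13 of 578 without it (2.25%). In control these shares were 9 of 37 and 6 of 166, and in the BTYNB library 3 of 13 and 2 of 1005. In the anti-PD-1 library they were 6 of 38 and 3 of 309. Ccr2 went the other way in the combination, at 10 of 139 members with Alox15 and 372 of 578 without. Gata6 was found in 43 of 139 members with Alox15 and 62 of 578 without in the combination. Its shares were 6 of 37 and 22 of 166 in control. With BTYNB they were 1 of 13 and 37 of 1005, and with anti-PD-1 2 of 38 and 42 of 309.

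Members with 3 or more UMIs of Prg4, Alox15, Serpinb2, Selp, Icam2 and Gata6 together numbered 37, 15, 45 and 169, or 18.2%, 1.47%, 12.97% and 23.6%. The 6 genes and the limit were chosen after the values were seen, and 33, 23, 38 and 50 members lay at 2 or 3 UMIs. Gata6, which was common in keratin-positive cells, helped to choose these members. Whether they are the same kind of cell in each library was not tested. In the combination these cells had 469.7 CPM of Adgre1 against 142 CPM in the remaining members, and 327 against 12.8 CPM of the coagulation factor gene F5. They had less of the MHC class II gene H2-Aa, at 3085 against 6497 CPM, and more of the fibronectin gene Fn1, at 5290.6 against 902 CPM. The size of this contrast differed between libraries. For Adgre1 it was 318 against 143 CPM in control, 139.9 against 144 with BTYNB and 139.5 against 118 with anti-PD-1. For F5 it was 105 against 23.9, 22.1 against 21.0 and 58.5 against 35.9 CPM. With these members left out, the number of genes past 2-fold in combination against BTYNB was 48 (30 higher and 18 lower) in place of 98, and the resident list's median in combination against anti-PD-1 was -0.16 in place of 1.11. The fall of that median was largely set by the choice, because genes of that list picked the members left out.

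**Figure D2:**
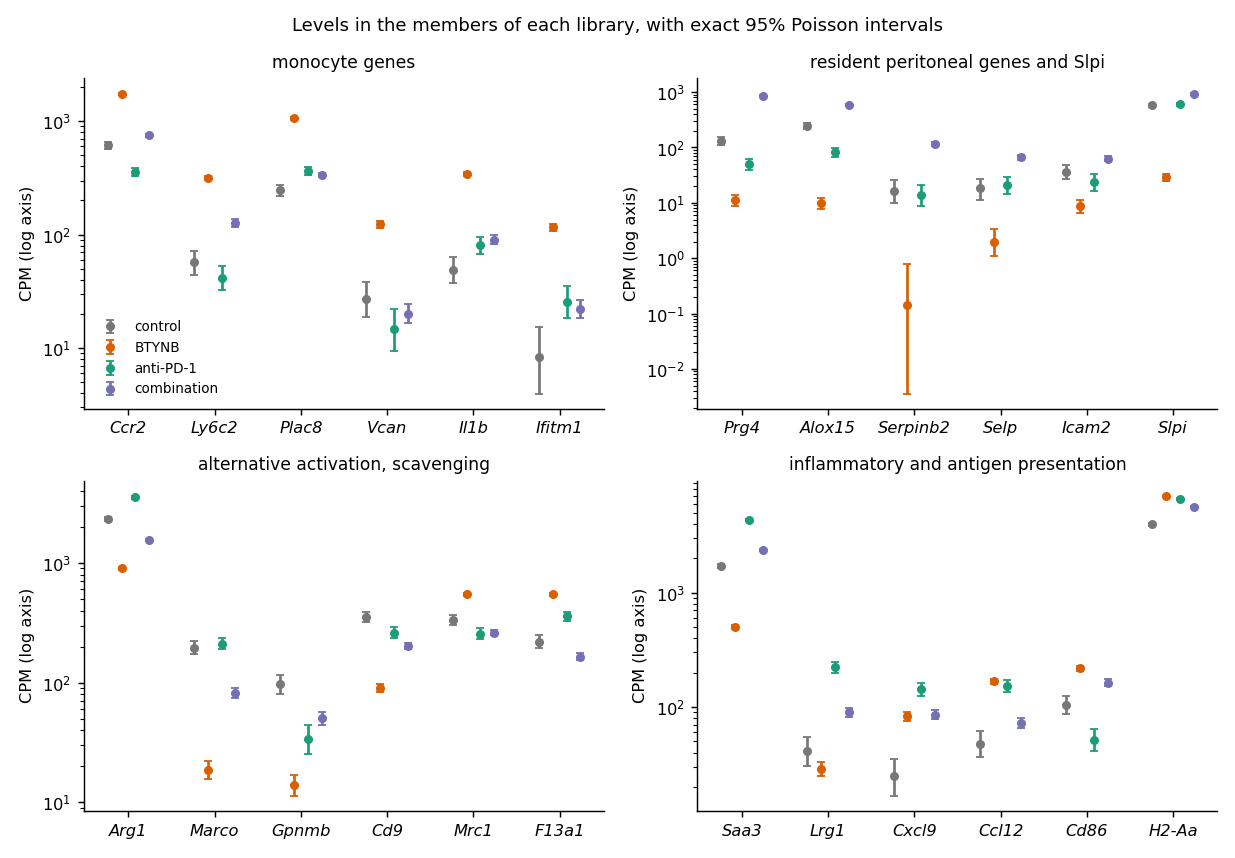
Level of 24 genes in the members of each library, in CPM on a log axis, with exact 95% Poisson intervals (points and bars) that cover counting error only. In the panel headed monocyte genes, Ccr2, Ly6c2, Plac8, Vcan, Il1b and Ifitm1 are highest with BTYNB, though Il1b and Ifitm1 are not on the monocyte-derived list. Prg4, Alox15, Serpinb2, Selp, Icam2 and Slpi are lowest with BTYNB and highest in the combination.

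Slpi, an antiprotease of mucosal surfaces and macrophages, showed the lowest ratio of BTYNB against control under the naming rule. It was at 575, 29.0, 597 and 919 CPM in the members and at 31.2 to 44.7 CPM in other cells, and only the BTYNB members lay under the level of the surrounding cells. It was found in 32.5%, 4.13%, 36.3% and 29.4% of thinned members. In combination against BTYNB its log2 ratio was 4.58, and 2.22 without the members that carried resident genes.

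Arg1 and Marco were lower with BTYNB. Arg1, the enzyme that breaks down arginine, was at 2333, 899.8, 3548 and 1566 CPM and at 5.93 to 24.3 CPM in other cells. Its log2 ratio was -1.36 [-1.44, -1.31] over control and -1.17 [-1.23, -1.13] with the antibody, and it was found in 70.9%, 35.4%, 83.3% and 50.6% of thinned members. Marco, a scavenger receptor for particles and bacteria, stood at 196.5, 18.7, 212 and 82.1 CPM. Gpnmb, a glycoprotein of lipid-laden macrophages, was at 97.4, 13.9, 34.0 and 50.3 CPM. Arg1 and Marco were thus lower with BTYNB in both settings, and Gpnmb without the antibody. With no keratin limit the ratios under the antibody were -0.70 for Arg1 and -0.65 for Marco.

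The alternative activation list did not move as one. Of its 11 genes compared, 4 were past 2-fold higher and 3 lower in BTYNB against control (median 0.64, and 0.21 at the higher floor), and 1 was higher and 4 lower in combination against BTYNB (median -0.52). Chil3, which is on this list and on the monocyte-derived one, was at 1.62 in BTYNB against control and at 0.21 at the higher floor. Clec10a, a lectin of monocyte-derived macrophages and dendritic cells, was at 34.7, 99.3, 22.4 and 66.0 CPM, and the transcription factor gene Egr2 at 37.2, 111, 27.6 and 42.8 CPM. Mrc1, the mannose receptor CD206, stood at 334, 546, 257 and 261 CPM. F13a1, coagulation factor XIII of monocytes and macrophages, was at 220.4, 546, 358 and 165 CPM, higher with BTYNB alone than in control and lower in the combination than under anti-PD-1. Cd163, the haemoglobin scavenger receptor, was at 13.2, 4.40, 30.1 and 8.05 CPM and below the level needed to be compared.

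Most lipid and lysosomal genes stayed within 2-fold, and 5 were lower with BTYNB. Of 17 genes, 5 were past 2-fold lower in BTYNB against control and none higher (median -0.25), and 4 were higher and none lower in combination against BTYNB (median 0.23). Cd9, a tetraspanin, was at 353, 90.7, 262 and 203 CPM, although it was at 271 to 681 CPM in other cells. Ctsd, a lysosomal protease, stood at 701, 248, 469 and 382 CPM, and the fatty acid carrier gene Fabp5 at 199.8, 67.0, 189.7 and 147 CPM. Apoe, the lipid carrier that marks many C1q-positive macrophages, stood at 3054, 2636, 3751 and 3059.7 CPM, and Trem2 at 150.3, 130.5, 179 and 128 CPM, with no ratio past 2-fold. Spp1 was at 29.7, 13.2, 20.5 and 9.51 CPM, below the level needed to be compared.

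Antigen presentation genes were higher in BTYNB against control by less than 2-fold. All 10 genes compared from the MHC class II and costimulation list lay above 0 (median 0.71), and none was past 2-fold in either direction. H2-Aa was at 3951, 6958, 6562 and 5629 CPM, and Cd74, the invariant chain, at 6863, 11045, 7355 and 7669.5 CPM. Cd86, a ligand that costimulates T cells, stood at 104, 218, 51.9 and 163 CPM, and its log2 ratio of combination against anti-PD-1 was 1.49 (1.32 at the low end of its counting interval). In anti-PD-1 against control the list split, with H2-Aa at 0.73 and Cd86 at -0.88. H2-Aa was also found in 69.9% to 90.5% of keratin-positive cells, so its share of cells does not mark macrophages here. None of 13 MHC class I and peptide loading genes was past 2-fold in any comparison.

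Anti-PD-1 members had higher levels of a few inflammatory genes. Of 13 genes compared from the inflammatory and NF-kB list, none was past 2-fold against control (median 0.12). The 4 stromal genes compared all lay above 0 (median 0.89), with 1 past 2-fold. Under the naming rule the 5 highest were Lrg1, Cxcl9, Ccl12, Flrt2 and Ccdc80. Flrt2 and Ccdc80 were each at 1.34, and at 0.61 and -0.30 with at least 25 C1q UMIs. Lrg1, a secreted glycoprotein of inflammation, was at 41.3, 29.0, 223 and 90.0 CPM, a log2 ratio of 2.18 against control and 1.36 for combination against BTYNB. The latter was -0.32 without the members that carried resident genes. Saa3, the acute-phase amyloid of mouse macrophages, was at 1717, 501, 4302 and 2362 CPM, with log2 ratios of 1.32 [1.25, 1.40] and 2.22 [2.18, 2.29]. Cxcl9, a chemokine that interferon-gamma induces and that recruits T cells, stood at 24.8, 82.6, 142 and 85.6 CPM. Its log2 ratio was 2.13 [1.97, 3.12] in anti-PD-1 against control and 0.05 [-0.13, 0.23] in combination against BTYNB. Over all members Lrg1 and Saa3 were thus higher with the antibody in both settings, and Cxcl9 where BTYNB was absent. Without the members that carried resident genes, Saa3 in combination against BTYNB was 1.32, while Lrg1 was no longer higher there.

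Few members carried Cxcl9 and Nos2. Cxcl9 was found in 5.42% (2.74 to 9.49%), 4.03% (2.91 to 5.42%), 11.5% (8.36 to 15.4%) and 8.23% (6.32 to 10.5%) of thinned members, against 0.18% to 0.34% of keratin-positive cells. The inducible nitric oxide synthase gene Nos2 had 1, 7, 31 and 6 UMIs, or 0.826, 0.994, 19.9 and 1.10 CPM. Of 14 genes compared from the interferon-gamma list, 2 were past 2-fold higher in anti-PD-1 against control and none lower (median 0.47). They were Cxcl9 and the GTPase gene Igtp, the latter at 29.7, 43.5, 103 and 54.3 CPM and at 63.1 to 146 CPM in other cells. Cd274, the PD-1 ligand, stood at 104, 135, 174 and 116 CPM with no ratio past 2-fold.

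Chemokines otherwise differed one by one. Ccl12, a ligand of CCR2, was at 47.9, 167, 153 and 72.2 CPM, higher with either agent than in control or combination. Ccl5, a T cell attractant, was at 64.4, 119, 25.6 and 156 CPM, and its other-cell level was 10.3, 235, 11.2 and 109 CPM. Its log2 ratio of combination against anti-PD-1 was 2.22, and 1.06 without the members that carried dendritic cell genes. Ccl24, the eotaxin-2 gene, stood at 67.7, 12.6, 25 and 41.5 CPM.

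Metabolic and cycling genes varied in level. Of 13 glycolysis and hypoxia genes, 4 were past 2-fold lower and none higher in combination against anti-PD-1, all 13 lay under 0, and the median was -0.82. Bnip3, a hypoxia-induced mitophagy receptor, was at 80.9, 88.3, 124 and 36.9 CPM, and the glycolytic enzyme gene Pgk1 at 577, 680.1, 807 and 397 CPM. Egln3, an oxygen-sensing hydroxylase, stood at 45.4, 19.3, 115 and 23.8 CPM in members and at 141 to 335 CPM in other cells. Of 12 proliferation genes, 6 were past 2-fold lower in BTYNB against control and none higher (median -0.92). Mki67 was found in 41.4%, 13.9%, 33.7% and 24.0% of thinned members and in 18.7% to 27.2% of keratin-positive cells.

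Stromal and haemoglobin transcripts led several rankings. Col1a1, a fibrillar collagen of fibroblasts, was at 124, 0.284, 247 and 27.1 CPM in the members and at 39.0 to 53.1 CPM in other cells, and only 3.94%, 0%, 6.63% and 1.81% of thinned members had it. In the BTYNB members 0 of 1018 had a Col1a1 UMI after thinning, with an upper bound of 0.362%. Hba-a1, a haemoglobin chain of red cells, stood at 8.26, 66.7, 2.56 and 119.6 CPM. Its ratio in combination against anti-PD-1 was 3.37 on the log2 scale, and 0.49 when keratin, Cd3 and Cd79 were all held at 0. In BTYNB against control it was 2.07, and 0.49 at the higher floor. Both genes are themselves part of the stromal and erythroid sums given above, so those sums are no separate measure of them.

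The remaining lists are given by their counts past 2-fold. Over all genes compared, 4.42% were lower in BTYNB against control. In combination against anti-PD-1, 1.44% were lower and 0.86% higher. The complement list beyond C1q had 3 of 7 genes lower in BTYNB against control, among them C4b at 128, 37.2, 190.4 and 148 CPM. The iron list had 1 of 5 lower, Fth1, which encodes the ferritin heavy chain and stood at 8692, 4158, 7755 and 5282 CPM. The immunosuppression and checkpoint list had 3 of 9 lower in combination against anti-PD-1, namely Arg1, Vegfa and Hmox1, the last of which encodes the haem-degrading enzyme and stood at 735, 444, 1265 and 533 CPM. Among 13 inflammatory and NF-kB genes and 12 phagocytic and Fc receptor genes, at most 1 of each list was past 2-fold higher and at most 1 lower in any comparison. The early response and heat shock list had 3 of 12 higher in combination against anti-PD-1, at a median of 0.59. The type I interferon list had none of 4 genes past 2-fold in any comparison, and the rest of its 14 genes could not be compared. Igf2bp1, which encodes the protein that BTYNB binds, had 1, 6, 3 and 7 UMIs in the members, a level of 0.826 to 1.92 CPM against 7.43 to 12.0 CPM in other cells.

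**Figure D3:**
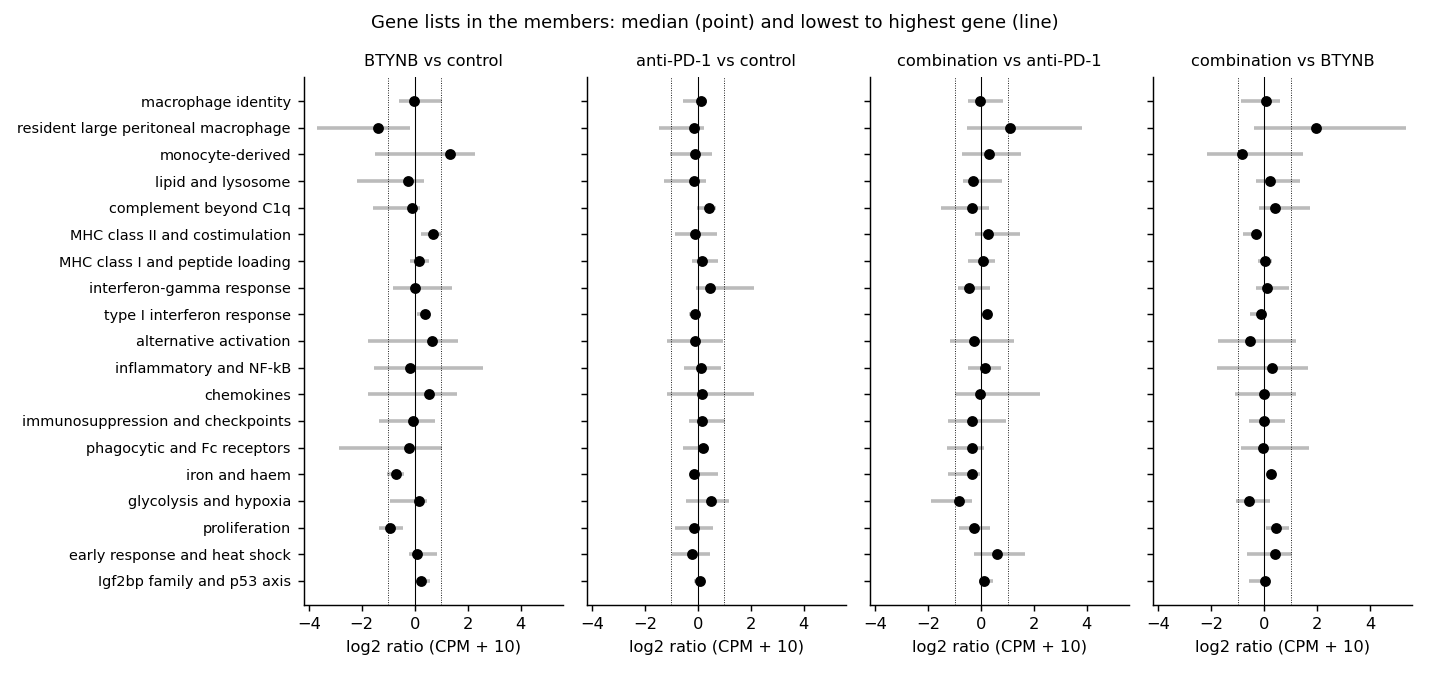
Median log2 ratio of CPM + 10 (points) and the lowest to highest gene (lines) of 19 gene lists in the members, for each of 4 comparisons of 1 library with 1 library; dotted lines mark 2-fold. The monocyte-derived list stands at 1.33 and the resident list at -1.38 in BTYNB against control, and the resident list at 1.96 in combination against BTYNB.

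BTYNB was compared without and with the antibody in libraries that do not overlap. Across the 3955 genes, the ratio to control and the ratio of the combination to anti-PD-1 were correlated at 0.47 (Pearson and Spearman alike). Genes are not independent, and both ratios share the differences in RNA of other cells. Past 2-fold, 12 genes were higher in both and 35 lower in both. The 5 highest by the smaller ratio were Hba-a1, Hbb-bs, Hba-a2, Ly6c2 and the immunoglobulin gene Ighm, and at the higher floor the 3 haemoglobin genes were at 0.49, 0.29 and 0.21 in BTYNB against control. The 5 lowest were Col1a2, Col1a1, Sparc, Mgp and Bgn, which encode matrix proteins. In 8 genes the directions were opposite, 6 of them lower without and higher with the antibody: Prg4, Alox15, Serpinb10, Serpinb2, Selp and Icam2.

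For the antibody, the ratios without and with BTYNB were correlated at 0.11 (Pearson) and 0.13 (Spearman). Past 2-fold, 6 genes were higher in both and 1 lower in both. The 5 highest were Lrg1, Saa3, Aldh1a1, Ly6a2 and Igfbp7, and the 1 lower in both was Chil3, a chitinase-like protein of monocytes, at 26.4, 102, 7.69 and 23.4 CPM. Its ratio to control was -1.04, and -0.70 in members with at least 25 C1q UMIs. In combination against BTYNB Chil3 was at -1.74, and at -0.47 at the higher floor, which is not past 2-fold. Aldh1a1 was at 635 to 784 CPM in other cells and at 34.7, 13.6, 101 and 47.0 CPM in the members. Several of these depend on the setting. With free RNA subtracted Aldh1a1 was at 0 in both comparisons. Ly6a2 in anti-PD-1 against control was 1.23, and 0.78 at the higher floor. Igfbp7 there was 1.03, and 0.07 in members with at least 25 C1q UMIs. In combination against BTYNB Igfbp7 was 1.62, and 0.82 with keratin, Cd3 and Cd79 at 0. In 5 genes the directions were opposite.

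**Figure D4:**
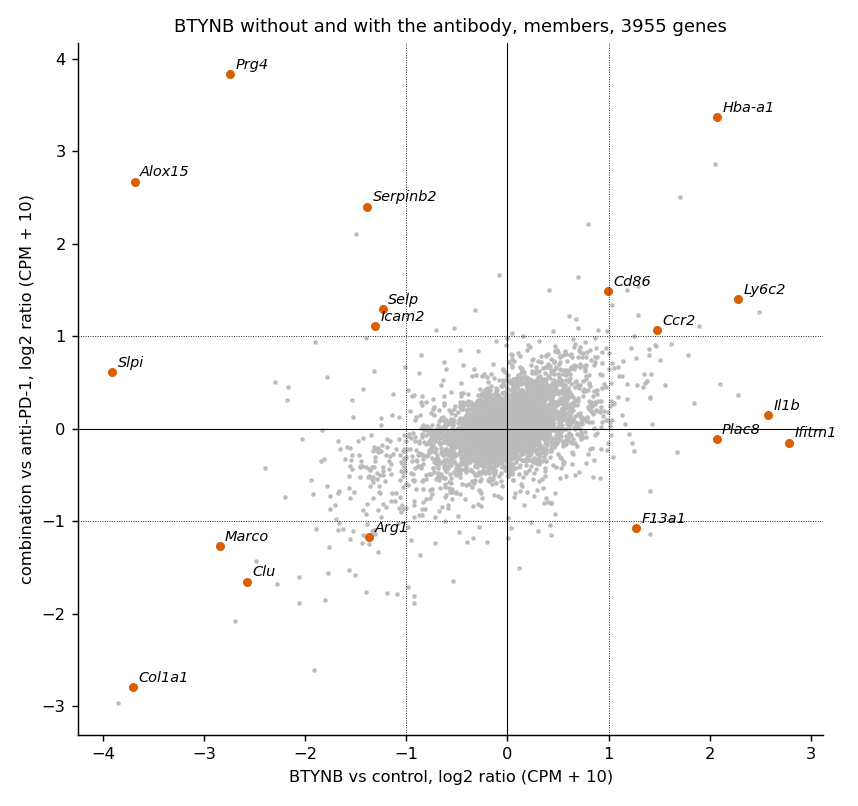
Each point is 1 of 3955 genes in the members, with the log2 ratio of BTYNB to control on the horizontal axis and that of the combination to anti-PD-1 on the vertical axis; dotted lines mark 2-fold. Prg4 and Alox15 lie at the upper left (lower without and higher with the antibody), Ly6c2 and Hba-a1 at the upper right, and Col1a1 and Marco at the lower left.

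Within each library the members were set beside the C1q-positive cells that carried Retnla, in which Retnla stood at 6651 to 10683 CPM. The anti-PD-1 library had 9 such cells with 39244 UMIs in all, so that its ratios are coarse. Of the 3955 genes with at least 50 CPM in the members of 1 or more libraries, 45 were at least 2-fold higher in the members in all 4 libraries. Another 7 were at least 2-fold lower. Genes high only in the Retnla-positive cells could not pass this filter, so the counts do not weigh the directions against each other. Apoe was at 86.9, 375, 51.0 and 507 CPM in the Retnla-positive cells, against 2636 to 3751 CPM in the members. Trem2, Stab1 and the scavenger receptor gene Msr1 were also higher in the members, with Msr1 at 1099.7, 645, 1326 and 786 CPM against 198, 164, 382 and 274 CPM. Ly6c2 was at 0, 1.71, 0 and 7.15 CPM in the Retnla-positive cells. The lower genes included Ear2, an eosinophil-associated ribonuclease, at 95.8, 207, 44.2 and 127 CPM against 1038, 973, 561 and 648 CPM, and the lysozyme gene Lyz1.

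**Figure D5:**
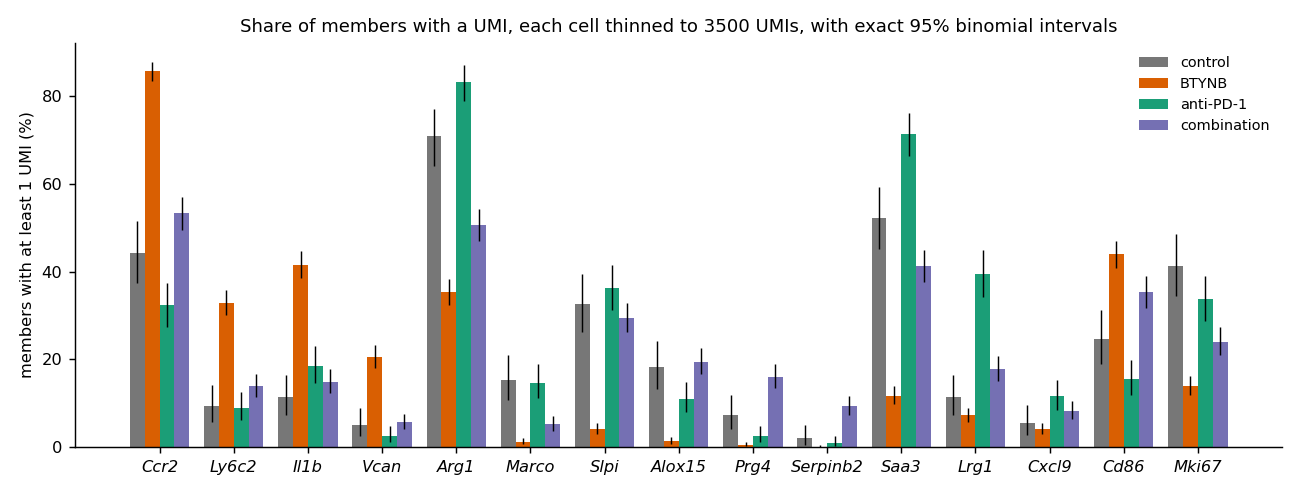
Percentage of members with at least 1 UMI of 15 genes (bars) after each cell was thinned to 3500 UMIs, for 1 library per group, with exact 95% binomial intervals. Ccr2 was found in 85.8% of BTYNB members against 32.3% to 53.3% in the other libraries, and Arg1 in 35.4% against 50.6% to 83.3%.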

How the data were processed

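The authors pooled the cells of all animals of a group, made BD Rhapsody HT whole-transcriptome libraries and deposited UMI counts per gene and cell, aligned to GRCm39 per the labels; the annotation is not given in the sources used here. The deposited counts were not normalized. Members were chosen by the limits given above, and the members and gene lists were chosen with earlier results of these data known. The study's quality limits (200 genes, 33% mitochondrial UMIs) were applied with genes named mt-, where the study used MitoCarta. The study marked multiplets with scDblFinder, which was not run here; lineage limits and leaving out the 5% largest members stood in for it. UMIs were summed per library with Python 3.11.15, numpy 2.4.6, scipy 1.17.1 and pandas 2.3.3, scaled to CPM and compared as log2(CPM + 10). With 1 library per group no test was run. Intervals are exact (Poisson, Clopper-Pearson and conditional binomial, 95%) and cover counting error only. Named genes were, per comparison, the 5 highest and 5 lowest of those past 2-fold at both floors, with at least 30 UMIs in the higher library and a CPM there no lower than in its other cells, besides up to 4 members of each list and a fixed set. For each agent the 5 highest and 5 lowest past 2-fold the same way without and with the other agent were also named, at the floor of 3500 UMIs and with no condition on other cells. Genes of the rule were left out of the comparisons. On simulated counts, 196 to 199 of 200 genes changed 4-fold were past 2-fold and 0 of 3755 others. These counts held counting error only, around a profile shared by both libraries of a comparison. They therefore cannot tell how often spread between animals, free RNA or cell mixture would carry a gene past 2-fold. In all, 17 alternatives were tried, 4 of them chosen after the data were seen.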

Additional observations from a re-analysis of the deposited data

Results flagged for a closer look

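In the genes below the log2 ratio of 1 agent was past 2-fold one way alone and past 2-fold the other way when the other agent was present, with both counting intervals away from 0. The difference was not tested in any of them, because each group has 1 library. The value given first is the ratio alone minus the ratio with the other agent.

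For BTYNB (against control, then combination against anti-PD-1) the differences were -6.58 for Prg4 (-2.74 and 3.83), -6.36 for Alox15 (-3.68 and 2.67), -3.79 for Serpinb2 (-1.39 and 2.40), -3.60 for Serpinb10 (-1.50 and 2.10), -2.53 for Selp (-1.23 and 1.29) and -2.42 for Icam2 (-1.31 and 1.11). They were 2.35 for F13a1 (1.27 and -1.07) and 2.55 for the unnamed gene ENSMUSG00000120878 (1.41 and -1.13).

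For anti-PD-1 (against control, then combination against BTYNB) the differences were -6.58 for Prg4 (-1.24 and 5.34), -6.36 for Alox15 (-1.47 and 4.89), -2.62 for Gpnmb (-1.29 and 1.33), -2.34 for Ccl24 (-1.15 and 1.19) and 2.60 for Ccl12 (1.5 and -1.11). Prg4 and Alox15 appear under both agents because their ratios were past 2-fold in opposite directions for each agent. The value of the difference is the same under both agents for any gene, because it comes from the same 4 libraries.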

How the results depend on the processing

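No paired analysis was possible because each group has 1 library. Each count past 2-fold, share, list median and named ratio was computed again under 17 alternatives, 4 of them chosen after the data were seen (at least 25 C1q UMIs, and without members that carried Ly6c2, resident or dendritic genes). Of 68 counts 60 were within 1.5 times the reported one. At the floor of 5115 UMIs 224 genes were past 2-fold in anti-PD-1 against control and 340 in combination against anti-PD-1, and the shares of cells were 1.76% (control), 11.4% (BTYNB) and 0.681% (anti-PD-1). With no floor the BTYNB share was 7.93%. In cells of 3500 to 10000 UMIs the shares were 4.60%, 20.5%, 3.44% and 16.3%, with keratin, Cd3 and Cd79 at 0 they were 1.79%, 10.7%, 1.52% and 6.13%, and with no keratin limit 3.38% (control), 4.60% (anti-PD-1) and 11.9% (combination). That last setting gave 204 genes in combination against anti-PD-1. Anti-PD-1 against control had 69 genes with 1 CPM added, 53 with genes from 20 CPM and 61 with free RNA subtracted, and BTYNB against control had 371 with genes from 20 CPM. Without members that carried resident genes, combination against BTYNB had 48.

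Of 1292 recomputed list medians 1258 lay within the range of the list's middle genes, 33 lay outside it and 1 reversed. Of 2788 recomputed named ratios 1676 lay within the gene's counting interval, 1104 lay outside it and 8 reversed. That interval is of the ratio without the added 10 CPM, and for low genes it need not hold the reported ratio itself. Without resident members, the values in combination against anti-PD-1 were -0.16 for the resident list, -0.0029 for Prg4, -0.86 for Alox15, -0.035 for Serpinb2 and -0.67 for Selp. In the same setting Prg4 was 0.058 in anti-PD-1 against control and Lrg1 was -0.32 in combination against BTYNB. Those members were taken out by these same genes, apart from Lrg1, for which the cause was not tested. Ccdc80 in anti-PD-1 against control was -0.30 at 25 or more C1q UMIs, and Hba-a2 in combination against anti-PD-1 was -0.39 with keratin, Cd3 and Cd79 at 0, and the cause was not tested. With 9 to 1018 cells behind a value, the depth of the control and anti-PD-1 members limits genes near 10 CPM, and pooling leaves the spread between animals unknown.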
